A study of Homo sapiens with 6 samples.

Results

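The members described here are the genes for G-protein-coupled receptors and for regulators of G-protein signalling (RGS proteins) in LX-2 cells given the secreted protein IGFBP-7. They were the protein coding genes whose symbol belongs to named families of receptors, the adhesion (ADGR), GPR and GPRC genes, the receptors of adrenaline, adenosine, serotonin, nucleotides, endothelin, prostanoids, thrombin and related proteases, sphingosine 1-phosphate (S1P), lysophosphatidic acid (LPA), angiotensin, bradykinin, oxytocin, vasopressin and chemokines, and the RGS genes. This gave 178 of the 16569 genes of the deposited table, of which 163 came in by a receptor symbol and 15 are RGS genes. Receptors with other symbols, such as the muscarinic and somatostatin receptors, are not among the 178. HTR3B and HTR3C came in by symbol but encode ion channels, and some GPR genes encode membrane proteins that are not established receptors.

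LX-2 is 1 immortalised line of human hepatic stellate cells, labelled wild type, so the data describe 1 cell line in culture. Cells in medium with 2% fetal bovine serum spent 18 h without serum and then 24 h with IGFBP-7 at 100 ng/mL in the treated group, or with phosphate-buffered saline (PBS) in the control group. There were 3 libraries of poly(A) RNA per group, with 45242993 to 55479940 recovered reads in the IGFBP-7 libraries, against 40599380 to 43537923 in the PBS libraries. The comparison asks which receptor and RGS transcripts differ after IGFBP-7. The labels do not say whether the 3 libraries stem from separate cultures, so the p-values describe variation among these libraries, which could be technical only.

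G-protein-coupled receptors carry a signal from an extracellular ligand to a heterotrimeric G protein. Gs raises cyclic AMP through adenylyl cyclase, Gi lowers it, Gq activates phospholipase C and calcium release, and G12/13 activates RhoA. RGS proteins speed the hydrolysis of GTP on the alpha subunit and so end the signal, and receptor kinases and arrestins desensitise the receptor itself. In hepatic stellate cells, endothelin, angiotensin, thrombin, LPA and S1P are known for driving contraction, migration or proliferation, whereas receptors that raise cyclic AMP are known for opposing activation.

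The libraries of a group resembled each other more than those of the other group, with correlations of 0.987 to 0.989 within groups and 0.952 to 0.954 between them. Stellate cell markers were high: the 11 measured of 12 summed to 254211 to 280358 normalized counts in the IGFBP-7 libraries, against 87704 to 90312 in the PBS libraries, and the muscle filament gene DES was at or near 0. COL1A1 made up most of these sums, with 189675 to 207294 with IGFBP-7, against 47543 to 50703 with PBS. Of the 10 stellate markers tested, 7 were higher with IGFBP-7, while DCN and RGS5 did not pass the limma test described below. LUM was lower, with 101 to 120 with IGFBP-7, against 302 to 418 with PBS. Hepatocyte markers summed to 380 to 472 normalized counts with IGFBP-7, against 361 to 405 with PBS, with ALB at no more than 3.39 in any library. Of the 2 hepatocyte markers tested 1 was higher and 1 did not pass. Endothelial markers summed to 2297 to 2421 with IGFBP-7, against 2655 to 2777 with PBS, with CDH5 at 0 in every IGFBP-7 library and LYVE1 at 0 in 5 of 6 libraries. Of the 6 endothelial markers tested 2 were higher and 1 lower. With scaling to the library total the log2 changes (IGFBP-7 minus PBS) were 0.73 for PECAM1, 0.57 for TEK and -0.47 for EGFL7. Macrophage and leukocyte markers summed to 1773 to 2064 with IGFBP-7, against 3375 to 3466 with PBS, with CD3E at no more than 3.39 in any library. In that list CD68, CD14 and ITGAM were lower and CSF1R was higher with IGFBP-7. Epithelial markers, mostly the keratins KRT8 and KRT18, summed to 37692 to 43785 with IGFBP-7, against 27497 to 28318 with PBS, and EPCAM stayed at or below 10.2. The part of these lists in the results that follow was not tested.

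IGFBP-7 went with large differences in single receptors but no common direction over the family. Of the 178 members, 106 passed the filter on low values, which asks for 10 or more normalized counts on average across all libraries, and were tested. Of these, 30 were higher with IGFBP-7, 34 were lower and 42 did not pass the test, which was limma-trend with an adjusted p under 0.05. The changed members make up 60.4% of those tested, against 60.6% of all 11872 tested genes. Among the 9852 tested protein coding genes, the kind to which all members belong, the share was 65.9%. By direction, 28.3% of members were higher and 32.1% lower, against backgrounds of 31.3% higher and 29.2% lower. Among protein coding genes 34.4% were higher and 31.6% lower. The shares given beside later counts are those of all tested genes. Scaling to the library total instead moved the median of all tested genes by -0.14 on the log2 scale and gave 27 members higher and 43 lower, beside 20.5% higher and 35.2% lower among all tested genes. The median log2 change (IGFBP-7 minus PBS) of the tested members was -0.0065, against 0.024 over all tested genes. By 2-fold or more, 9 members were higher and 17 lower, 24.5% of those tested, against 11.4% of all tested genes, of which 5.05% were higher and 6.33% lower. The filter let in 2 members only through the IGFBP-7 libraries and 2 only through the PBS libraries. Such members could be tested only if they differed. With a filter at a mean of 100, 4 members were higher and 10 lower by 2-fold or more. The share of all genes at that filter was not computed, so the contrast is not matched for expression level. The median size of the log2 change was 0.61 for the tested members and 0.33 for all tested genes. In 67 of the 106 the values of the groups did not overlap, against 63.5% of all tested genes. In bulk RNA, fewer cells expressing a gene and less RNA per cell cannot be told apart.

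**Figure D1:**
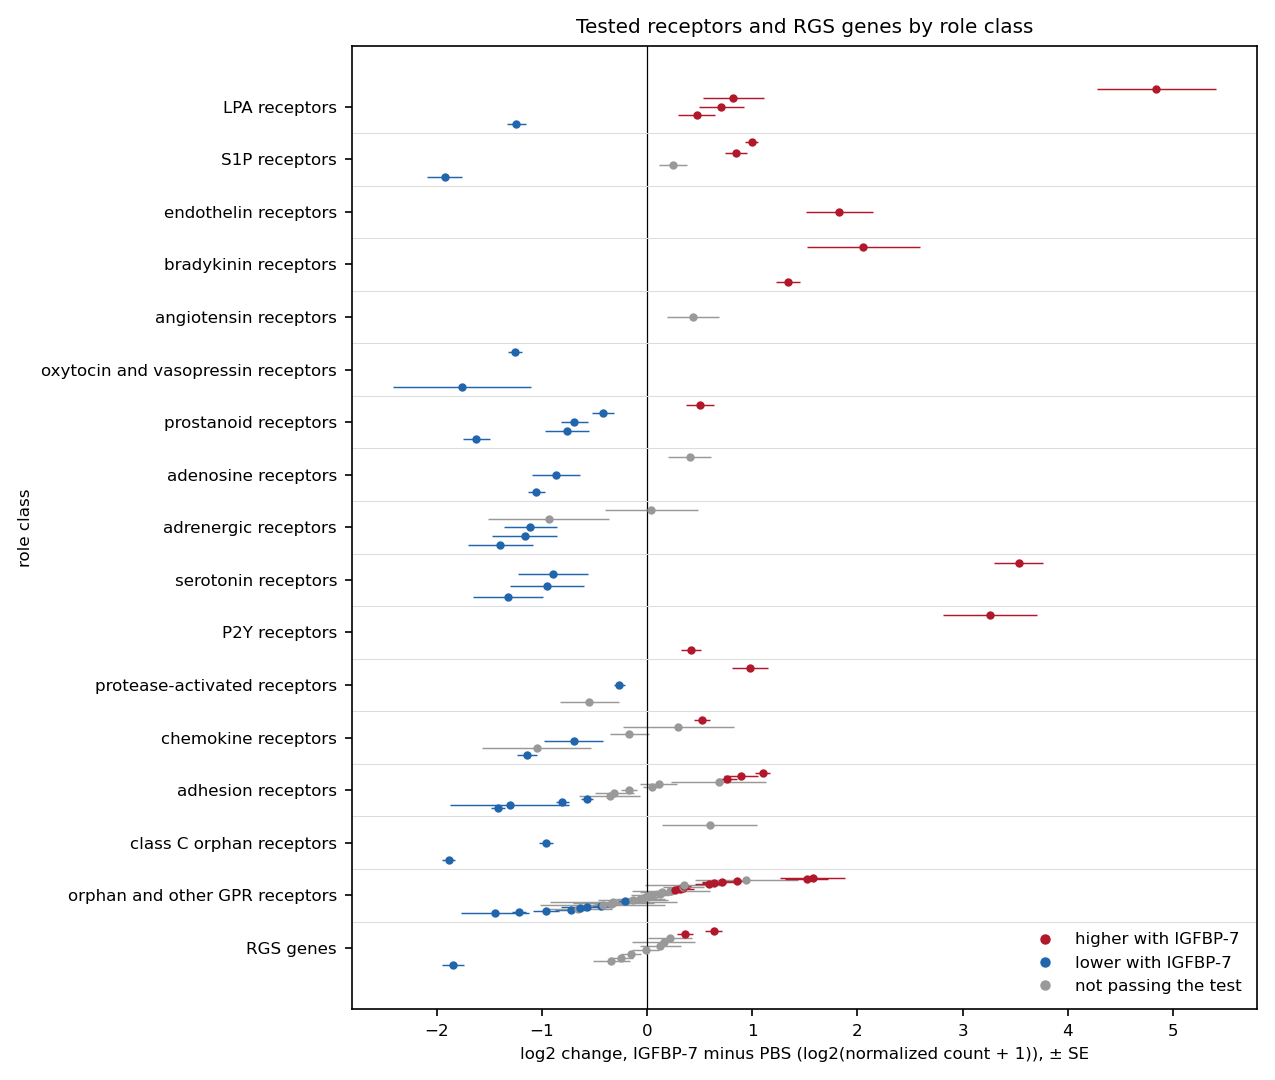
Log2 change (IGFBP-7 minus PBS, on the log2(normalized count + 1) scale) of each of the 106 tested members, by role class, with bars of 1 standard error and colours for higher, lower and not passing the limma test. Points of the LPA, S1P, serotonin and adhesion classes lie on both sides of 0, those of the bradykinin and P2Y classes lie above it and those of the oxytocin and vasopressin class below it.

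The receptors of lysophospholipids changed in both directions within each family. All 5 tested LPA receptors changed, 4 higher and 1 lower with IGFBP-7, and of the 4 tested S1P receptors 2 were higher and 1 lower. Over all tested genes 60.6% changed, 31.3% higher and 29.2% lower, so families this small cannot be set apart from that background. LPAR5, a receptor for LPA that couples to Gq and G12/13, had 92.0, 94.8 and 93.0 normalized counts with IGFBP-7, against 10.3, 0 and 2.14 with PBS. It was at a steady level in all IGFBP-7 libraries and under the level of 3 sequenced fragments, about 2.54 to 3.20 normalized counts, in 2 of the 3 PBS libraries, and the groups did not overlap. Its log2 change was 4.84 ± 0.57 (standard error, as for every log2 change) with an adjusted p of 2.05e-10 (limma), the largest rise among the members. LPAR5 passed the filter only through the IGFBP-7 libraries, so it could be tested only if it differed. The PBS level rests on 12 fragments in all, and the log2 change was 5.73 without PBS replicate 1, 3.99 without PBS replicate 2 and 2.93 with a pseudocount of 10.

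The bases before the LPAR5 start were read from RefSeq (GRCh38.p14), because LPAR5 is the member with the largest rise. The 250 bases directly upstream lie at chr12:6631650-6631899 on the minus strand, and the capitals mark 2 matches to CATTCC, the motif of TEAD factors, searched on both strands.
LPAR5: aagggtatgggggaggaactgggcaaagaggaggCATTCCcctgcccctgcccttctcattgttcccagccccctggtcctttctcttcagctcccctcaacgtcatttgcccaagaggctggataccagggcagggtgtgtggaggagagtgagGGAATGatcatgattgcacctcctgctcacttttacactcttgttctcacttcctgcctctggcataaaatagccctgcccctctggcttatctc
The matches begin 216 and 95 bases before the start. CATTCC stands in 11.9% of all 35116 such windows, each the 250 bases upstream of a RefSeq start, and it is a match of letters only. Among members with a window, it stands in 5 of 26 that were higher, 4 of 23 that were lower and 3 of 30 that did not pass. A member counts when any of its windows holds a match, whereas 11.9% is a share of single windows, so the measures are unlike.

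LPAR1, the receptor most often studied in fibroblast migration and fibrosis, went the other way. It had 561, 495 and 497 normalized counts with IGFBP-7, against 1335, 1227 and 1120.4 with PBS. Every IGFBP-7 library lay below every PBS library, with a log2 change of -1.24 ± 0.09 (adjusted p 4.05e-17, limma). LPAR4, a receptor that can couple to Gs and G12/13, had 119, 148 and 113 normalized counts with IGFBP-7, against 70.0, 89.4 and 71.6 with PBS, a log2 change of 0.71 ± 0.21 (adjusted p 0.00378, limma). LPAR6, which couples to G12/13, had 87.9, 92.3 and 76.5 normalized counts with IGFBP-7, against 24.7, 74.6 and 58.7 with PBS. The lowest IGFBP-7 value of LPAR6 was only just above the highest PBS value, and 1 PBS library stood apart from the other 2. Its log2 change of 0.82 ± 0.29 (adjusted p 0.0124, limma) was 0.36 with an adjusted p of 0.244 without PBS replicate 1 and did not pass with DESeq2 (0.68), and its adjusted p ran from 0.00194 to 0.244 over the alternatives. LPAR2 had 176, 149 and 215 normalized counts with IGFBP-7, against 140.0, 115 and 130.3 with PBS, and its log2 change of 0.47 ± 0.18 (adjusted p 0.0199, limma) did not pass without IGFBP-7 replicate 3 (0.34), without PBS replicate 2 (0.39) or with scaling to the library total (0.33), with adjusted p from 0.00804 to 0.151 over the alternatives.

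Among S1P receptors the fall of S1PR1 stood beside rises of S1PR3 and S1PR5. S1PR1, a Gi-coupled receptor known for its role in lymphocyte exit and in endothelial cells, had 79.7, 89.8 and 101 normalized counts with IGFBP-7, against 358, 318 and 357 with PBS. The highest IGFBP-7 value was below the lowest PBS value by more than 3 times, and the log2 change was -1.92 ± 0.16 (adjusted p 8.77e-15, limma), the largest fall of any member. S1PR3, which couples to Gi, Gq and G12/13 and is known for stellate cell and fibroblast migration, had 3582, 3166 and 3109 normalized counts with IGFBP-7, against 1670.2, 1574 and 1695 with PBS. Here all IGFBP-7 values lay above all PBS values, with a log2 change of 0.99 ± 0.07 (adjusted p 7.71e-19, limma). S1PR5 had 703, 819.8 and 676 normalized counts with IGFBP-7, against 417, 398 and 405 with PBS, with a log2 change of 0.84 ± 0.10 (adjusted p 6.29e-10, limma). S1PR2, known for G12/13 and RhoA signalling, had 344, 339 and 347 normalized counts with IGFBP-7, against 301, 241 and 335 with PBS. Its log2 change was 0.25 ± 0.13 and did not pass in the fit of all libraries (adjusted p 0.0997, limma). It passed without PBS replicate 3, at 0.35 with an adjusted p of 0.034, in a range of 0.034 to 0.521 over the alternatives, and a small stretch of its exons overlaps DNMT1 in GENCODE 29.

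**Figure D2:**
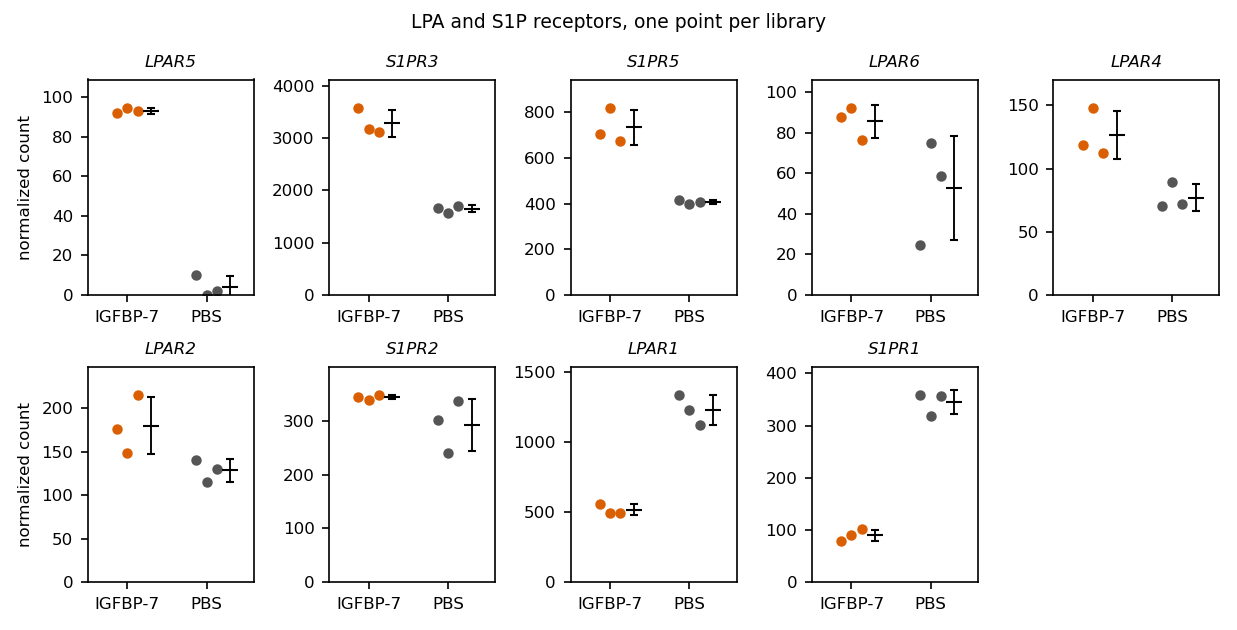
Normalized counts of the tested LPA and S1P receptors in each library, 1 point per library with the mean and SD (n = 3) beside it, IGFBP-7 left and PBS right, each panel on its own scale from 0. LPAR5 sits between 92.0 and 94.8 with IGFBP-7 against 0 to 10.3 with PBS, while S1PR1 sits between 79.7 and 101 with IGFBP-7 against 318 to 358 with PBS.

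The enzymes that make and remove these lipids differed as well. SPHK1, the kinase that makes S1P, had 7261, 6723 and 6993 normalized counts with IGFBP-7, against 2232, 2294 and 2189.6 with PBS. The IGFBP-7 values were all about 3 times the PBS values, with a log2 change of 1.64 ± 0.06 (adjusted p 6.28e-31, limma). ENPP2, the secreted autotaxin that makes LPA, had 90.0, 42.3 and 70.3 normalized counts with IGFBP-7, against 204, 206 and 162 with PBS, with no overlap and a log2 change of -1.54 ± 0.22 (adjusted p 3.20e-08, limma). PLPP3, a phosphatase that removes LPA and S1P outside the cell, was lower, with a log2 change of -0.99 ± 0.10, and the S1P lyase SGPL1 was higher, with 0.60 ± 0.06 (adjusted p 1.78e-12 and 3.07e-13, limma).

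Among receptors of vasoactive and contractile peptides, EDNRA and both bradykinin receptors were higher with IGFBP-7 and OXTR was lower. EDNRA, the Gq-coupled endothelin A receptor, had 81.8, 108 and 77.5 normalized counts with IGFBP-7, against 14.4, 37.3 and 25.6 with PBS. Its groups did not overlap, and the log2 change was 1.83 ± 0.32 (adjusted p 2.52e-06, limma). EDNRB, the endothelin B receptor, was under the filter. EDN1, which encodes the ligand endothelin 1, had 224, 163 and 200.5 normalized counts with IGFBP-7, against 84.4, 73.7 and 85.4 with PBS, with a log2 change of 1.25 ± 0.19 (adjusted p 1.59e-07, limma). The transcripts of the ligand and of the receptor were thus both higher. ECE1, which encodes an endothelin converting enzyme, was lower with scaling to the library total, at -0.45 ± 0.04 (adjusted p 5.73e-12, limma). That scaling moved the median of all tested genes by -0.14, and EDN1 was at 1.11 ± 0.19 with it (adjusted p 3.68e-06, limma).

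Both bradykinin receptors were higher. BDKRB2, the constitutive Gq-coupled receptor of bradykinin, had 714, 682 and 601 normalized counts with IGFBP-7, against 261, 254 and 270.2 with PBS. Every IGFBP-7 value was above 2 times every PBS value, and the log2 change was 1.34 ± 0.11 (adjusted p 7.26e-15, limma). BDKRB1, known as the inducible receptor of bradykinin fragments, had 34.8, 28.8 and 37.2 normalized counts with IGFBP-7, against 2.06, 9.82 and 16.0 with PBS. It was low in all libraries and the groups did not overlap. Its log2 change of 2.06 ± 0.54 (adjusted p 0.000965, limma) was 1.34 without PBS replicate 1 and 1.24 with a pseudocount of 10, and its mean passed the filter only through the IGFBP-7 libraries.

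BDKRB1 and BDKRB2 are neighbours on chromosome 14 that moved the same way, and for that reason the bases before their starts are shown. RefSeq (GRCh38.p14) places the 250 bases upstream of BDKRB1 at chr14:96255960-96256209 and those of BDKRB2 at chr14:96204589-96204838, both on the plus strand. Capitals mark TGACNTCA, searched on both strands, which resembles the cyclic AMP response element TGACGTCA and includes it.
BDKRB1: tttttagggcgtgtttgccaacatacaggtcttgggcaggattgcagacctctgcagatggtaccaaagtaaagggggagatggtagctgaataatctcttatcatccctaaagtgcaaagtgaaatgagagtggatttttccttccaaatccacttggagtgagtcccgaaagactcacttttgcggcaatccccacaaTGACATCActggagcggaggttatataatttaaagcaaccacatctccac
BDKRB2: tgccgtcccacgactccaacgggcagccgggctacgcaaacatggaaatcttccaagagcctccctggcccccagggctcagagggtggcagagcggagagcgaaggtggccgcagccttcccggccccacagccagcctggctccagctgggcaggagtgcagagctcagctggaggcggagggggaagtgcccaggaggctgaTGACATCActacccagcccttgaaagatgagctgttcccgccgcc
The match begins 50 bases before the start of BDKRB1 and 45 bases before that of BDKRB2. It lies in the longest run that the windows have in common, atgacatcact, of 11 bases. TGACNTCA stands in 6.87% of all 35116 windows, in 5 of 26 higher members, 2 of 23 lower members and 4 of 30 that did not pass. The motif of AP-1, TGANTCA, stands in 6.57% of all windows and in 3 of 26, 3 of 23 and 3 of 30 of the same groups. The full TGACGTCA stands in 1.65% of windows and in 1 of 26, 0 of 23 and 1 of 30, and the SMAD palindrome GTCTAGAC stands in 0.182% of windows and in none of these members. These are matches of letters, and no binding was measured. A member counts when any of its windows holds a match, so member counts and shares of windows are unlike measures. BDKRB1 and BDKRB2 are themselves among the 5 higher members with TGACNTCA.

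AGTR1, the angiotensin II receptor that couples to Gq, had 104, 108 and 97.1 normalized counts with IGFBP-7, against 44.3, 124 and 79.0 with PBS. The PBS values spread around the IGFBP-7 values, and the log2 change of 0.44 ± 0.25 did not pass (adjusted p 0.128, limma). It was 0.79 with an adjusted p of 0.0108 without PBS replicate 2, in a range of 0.0108 to 0.856 over the alternatives. OXTR, the Gq-coupled oxytocin receptor, had 1489, 1258 and 1424 normalized counts with IGFBP-7, against 3294, 3335 and 3275 with PBS. All IGFBP-7 values were less than 0.5 times any PBS value, with a log2 change of -1.25 ± 0.07 (adjusted p 1.98e-22, limma). AVPR2, the Gs-coupled vasopressin receptor of the kidney, is not a contractile receptor, and AVPR1A, which is, was under the filter. AVPR2 had 8.18, 1.69 and 6.20 normalized counts with IGFBP-7, against 20.6, 16.7 and 17.1 with PBS. It passed the filter only through the PBS libraries, and its log2 change of -1.76 ± 0.66 (adjusted p 0.0185, limma) did not pass without IGFBP-7 replicate 2 (-1.23) or without PBS replicate 1 (-1.67), with adjusted p from 0.0107 to 0.0982 over the alternatives. With a pseudocount of 10 it was -0.89.

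**Figure D3:**
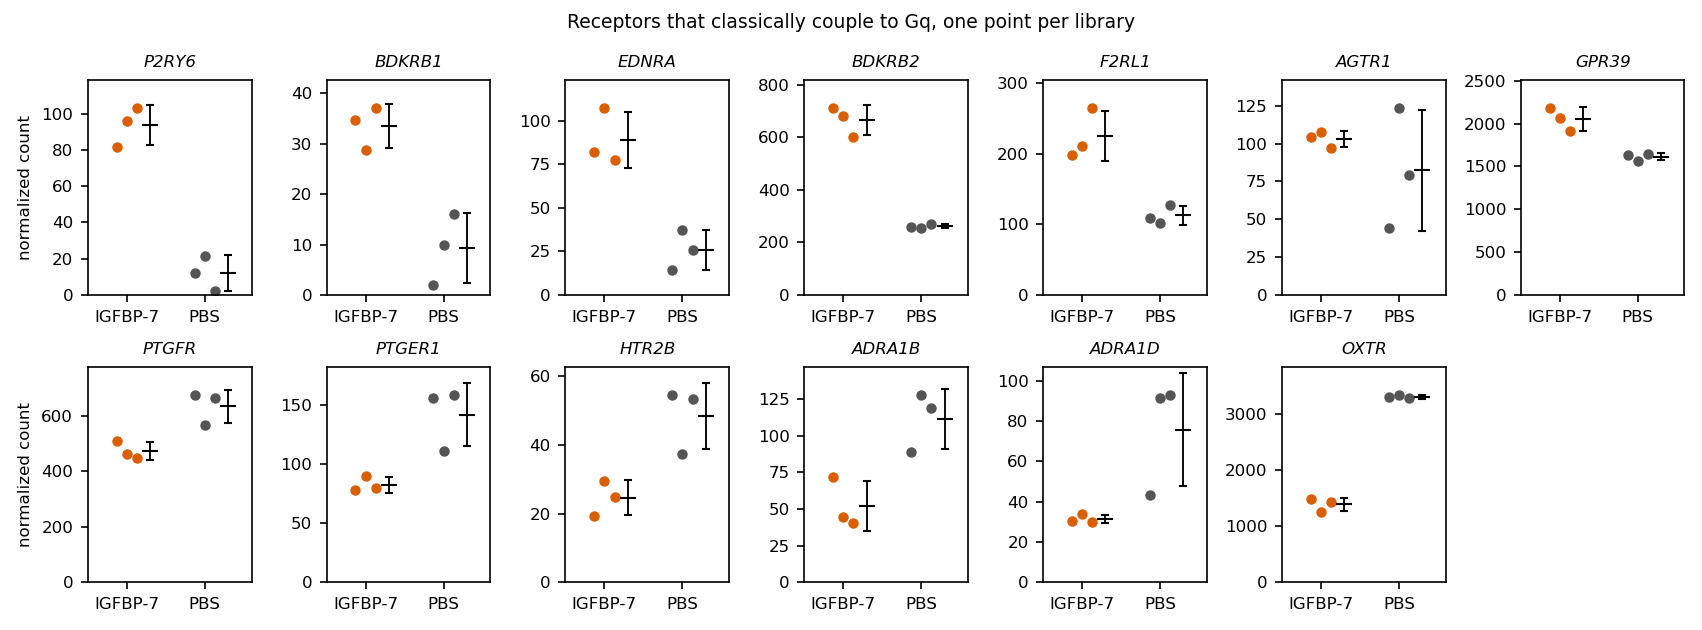
Normalized counts of 13 of the 14 tested members that classically couple to Gq, 1 point per library with the mean and SD (n = 3), IGFBP-7 left and PBS right, ordered from the highest to the lowest log2 change and each on its own scale from 0. P2RY6, both bradykinin receptors, EDNRA, F2RL1 and GPR39 are higher with IGFBP-7, AGTR1 overlaps, and the 6 others are lower, down to OXTR at 1258 to 1489 with IGFBP-7 against 3275 to 3335 with PBS.

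The receptors of prostaglandins, adenosine and adrenaline each held members that were lower. Of the 5 tested prostanoid receptors 4 were lower and 1 higher, of the 3 adenosine receptors 2 were lower, and of the 5 adrenergic receptors 3 were lower, against a background of 29.2% lower over all tested genes. PTGER4, the Gs-coupled EP4 receptor of prostaglandin E2, had 190.1, 191 and 169 normalized counts with IGFBP-7, against 585, 484 and 643 with PBS. The groups were far apart, and the log2 change was -1.62 ± 0.13 (adjusted p 8.67e-16, limma). PTGER2, the other Gs-coupled receptor of prostaglandin E2, went the other way with 396, 398 and 337 normalized counts with IGFBP-7, against 286, 214 and 303 with PBS, a log2 change of 0.50 ± 0.13 (adjusted p 0.00109, limma). PTGIR, the Gs-coupled prostacyclin receptor, had 284, 276 and 225 normalized counts with IGFBP-7, against 436, 378 and 455 with PBS, with -0.69 ± 0.13 (adjusted p 6.38e-06, limma). The groups did not overlap for any of the 3. PTGER1, the EP1 receptor, had 77.7, 89.8 and 79.6 normalized counts with IGFBP-7, against 155, 111 and 158 with PBS and a log2 change of -0.76 ± 0.21, and PTGFR, the Gq-coupled receptor of prostaglandin F2 alpha, had 510.1, 463 and 447 normalized counts with IGFBP-7, against 673, 566 and 662 with PBS and -0.42 ± 0.10 (adjusted p 0.00138 and 0.000482, limma).

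Of the enzymes upstream of these receptors, the inducible cyclooxygenase gene PTGS2 and the constitutive PTGS1 moved apart. PTGS2 had 127, 96.5 and 145 normalized counts with IGFBP-7, against 81.4, 29.5 and 32.0 with PBS, with a log2 change of 1.48 ± 0.28 (adjusted p 9.16e-06, limma). PTGS1 had 183, 176 and 178 normalized counts with IGFBP-7, against 379, 348 and 401 with PBS, with -1.06 ± 0.14 (adjusted p 2.44e-09, limma). PTGES, a synthase of prostaglandin E2, was lower by 1.37 on the log2 scale (adjusted p 6.52e-06, limma). With scaling to the library total it was at -1.51 ± 0.25. PTGES3, another prostaglandin E synthase gene, was higher with that scaling, at 0.12 ± 0.04 (adjusted p 0.00654, limma).

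ADORA2B, the low-affinity Gs-coupled adenosine receptor, had 694, 629 and 667 normalized counts with IGFBP-7, against 1387, 1388 and 1352 with PBS. The PBS values were tightly grouped at about 2 times the IGFBP-7 values, and the log2 change was -1.05 ± 0.08 (adjusted p 4.75e-16, limma). ADORA2A had 81.8, 56.7 and 58.9 normalized counts with IGFBP-7, against 124, 106 and 129 with PBS, with -0.87 ± 0.23 (adjusted p 0.000858, limma), and in GENCODE 29 it shares 56.8% of its exon bases with the readthrough gene SPECC1L-ADORA2A, so its reads could have been split. ADORA1, the Gi-coupled receptor, had 123, 113 and 118 normalized counts with IGFBP-7, against 91.6, 90.3 and 84.4 with PBS. Those groups did not overlap, yet the log2 change of 0.41 ± 0.20 did not pass (adjusted p 0.0826, limma). It passed with quantile normalization, at 0.48 with an adjusted p of 0.0387, in a range of 0.0387 to 0.275 over the alternatives.

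ADRB1, the Gs-coupled beta 1 receptor, had 16.4, 8.47 and 6.20 normalized counts with IGFBP-7, against 22.7, 7.86 and 38.5 with PBS. These overlapped and the log2 change of -0.93 ± 0.57 did not pass (adjusted p 0.158, limma), though without PBS replicate 2 it was -1.53 with an adjusted p of 0.0248, in a range of 0.0248 to 0.600 over the alternatives. ADRA1A, a Gq-coupled alpha 1 receptor, was under the filter, and the tested ones were both lower, ADRA1B with 71.6, 44.9 and 40.3 normalized counts with IGFBP-7, against 88.6, 128 and 119 with PBS and a log2 change of -1.11 ± 0.25 (adjusted p 0.00016, limma). ADRA1D had 30.7, 33.9 and 30.0 normalized counts with IGFBP-7, against 43.2, 91.3 and 92.9 with PBS, with -1.16 ± 0.31 (adjusted p 0.00115, limma), and in both genes the groups did not overlap. ADRA2A, Gi-coupled, overlapped, with 30.7, 28.8 and 14.5 normalized counts with IGFBP-7, against 16.5, 41.2 and 17.1 with PBS.

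Receptors were also grouped by the G protein they classically couple to. This grouping of 62 members was made after their values had been seen and is a description. Over all tested genes, 31.3% were higher and 29.2% lower, and these shares are the background of the counts that follow. Of the 11 tested Gs-coupled members 8 were lower, 2 were higher and 1 did not pass, and the median log2 change was -0.89. The 2 that were higher were PTGER2 and GPR3. Of the 14 tested Gq-coupled members 7 were higher and 6 lower, and the median was 0.39. Of the 10 tested Gi-coupled members 2 were higher and 4 lower, shares of 20% and 40%, and the median was -0.33. Scaling to the library total left the Gs split at 2 higher and 8 lower and the Gq split at 7 and 6, with 2 higher and 5 lower in the Gi group.

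**Figure D4:**
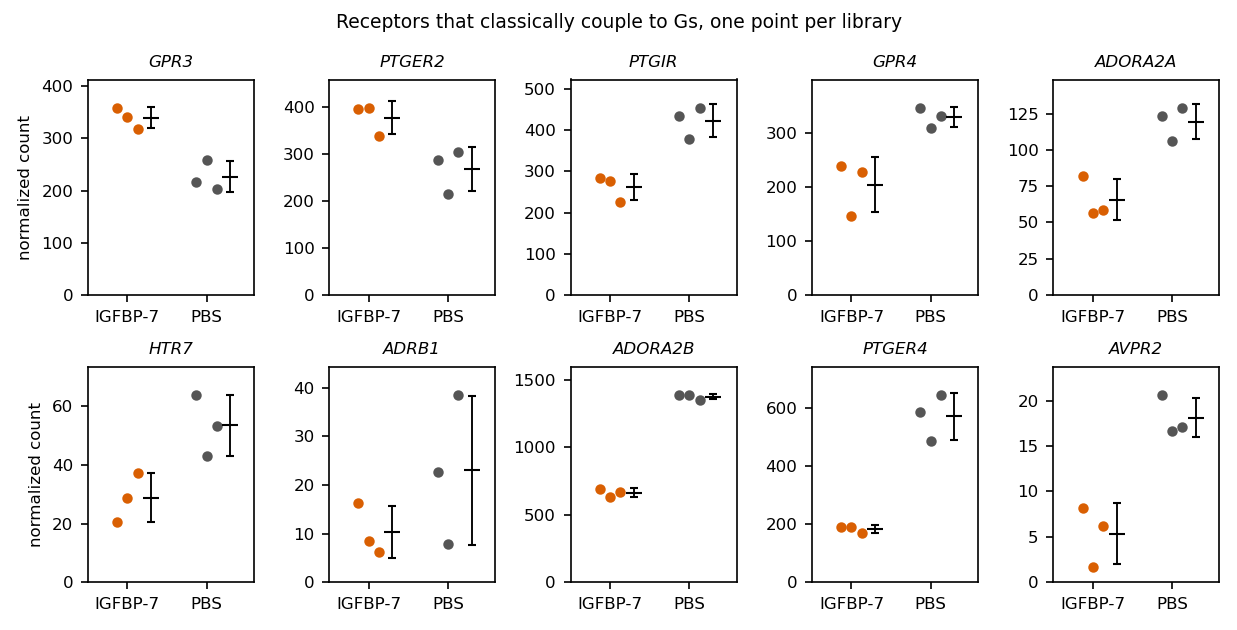
Normalized counts of 10 of the 11 tested members that classically couple to Gs, 1 point per library with the mean and SD (n = 3), IGFBP-7 left and PBS right, ordered from the highest to the lowest log2 change and each on its own scale from 0. GPR3 and PTGER2 are higher with IGFBP-7, ADRB1 overlaps, and the other 7 are lower, among them PTGER4 at 169 to 191 with IGFBP-7 against 484 to 643 with PBS and ADORA2B at 629 to 694 with IGFBP-7 against 1352 to 1388 with PBS.

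Of the 4 tested serotonin receptors, HTR1D rose and the other 3 fell, where 31.3% of all tested genes were higher and 29.2% lower. HTR1D, a Gi-coupled receptor known as a target of the triptans, had 302, 313 and 309 normalized counts with IGFBP-7, against 27.8, 35.4 and 17.1 with PBS. Means were 308 ± 5.95 with IGFBP-7, against 26.7 ± 9.18 with PBS (SD, n = 3 each), so the groups were far apart, and the log2 change was 3.53 ± 0.23 (adjusted p 9.59e-19, limma). HTR1B, its near relative that also couples to Gi, had 36.8, 27.1 and 17.6 normalized counts with IGFBP-7, against 95.8, 66.8 and 45.9 with PBS, with -1.32 ± 0.33 (adjusted p 0.000637, limma). The closest paralogs thus moved in opposite directions, each without overlap. HTR2B, a Gq-coupled receptor known for its part in fibrosis and in stellate cells, had 19.4, 29.6 and 24.8 normalized counts with IGFBP-7, against 54.6, 37.3 and 53.4 with PBS, and HTR7, a Gs-coupled receptor, had 20.4, 28.8 and 37.2 normalized counts with IGFBP-7, against 63.8, 43.2 and 53.4 with PBS. Their log2 changes were -0.95 ± 0.35 and -0.89 ± 0.33 (adjusted p 0.0176 and 0.0192, limma). HTR2B did not pass without IGFBP-7 replicate 1 (-0.79), without PBS replicate 1 (-0.85) or without PBS replicate 3 (-0.87), with adjusted p from 0.00781 to 0.0691 over the alternatives. HTR7 did not pass without IGFBP-7 replicate 1 (-0.67) or without PBS replicate 1 (-0.76), with adjusted p from 0.00853 to 0.0947.

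Both tested P2Y receptors of nucleotides were higher, against 31.3% of all tested genes, and 6 of the 8 in the table were under the filter. P2RY6, the Gq-coupled receptor of UDP, had 81.8, 95.7 and 103 normalized counts with IGFBP-7, against 12.4, 21.6 and 2.14 with PBS. All IGFBP-7 values were far above the PBS values, with a log2 change of 3.26 ± 0.44 (adjusted p 1.11e-08, limma) that was 3.86 without PBS replicate 2, 2.44 without PBS replicate 3 and 2.33 with a pseudocount of 10. P2RY11 had 759, 753 and 799.7 normalized counts with IGFBP-7, against 576, 576 and 577 with PBS and a log2 change of 0.42 ± 0.09 (adjusted p 0.000119, limma), but shares 50.02% of its exon bases with the readthrough gene PPAN-P2RY11. ENTPD1, which breaks down extracellular nucleotides, was also higher, by 0.63 ± 0.09 on the log2 scale (adjusted p 2.93e-08, limma). NT5E, another gene of nucleotide breakdown, was lower with scaling to the library total, at -0.49 ± 0.04 (adjusted p 4.38e-14, limma). That scaling moved the median of all tested genes by -0.14, and ENTPD1 was at 0.49 ± 0.09 with it (adjusted p 8.34e-06, limma).

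Protease-activated receptors are cleaved by thrombin or trypsin-like proteases. F2R, the thrombin receptor PAR1, had 6515, 6026 and 5853 normalized counts with IGFBP-7, against 6849.9, 7703 and 7509 with PBS. The fall was small but without overlap, with a log2 change of -0.26 ± 0.05 (adjusted p 2.61e-05, limma). F2RL1, the trypsin and tryptase receptor PAR2, had 198, 212 and 266 normalized counts with IGFBP-7, against 109, 102 and 128 with PBS, with 0.98 ± 0.17 (adjusted p 3.14e-06, limma). F2RL2, the PAR3 receptor, had 75.6, 71.1 and 33.1 normalized counts with IGFBP-7, against 90.6, 60.9 and 103 with PBS, values that overlap. Its log2 change of -0.55 ± 0.28 did not pass (adjusted p 0.0837, limma). It passed without IGFBP-7 replicate 1 (-0.76), without IGFBP-7 replicate 2 (-0.71), without PBS replicate 2 (-0.76) and with scaling to the library total (-0.69), with adjusted p from 0.0288 to 0.608 over the alternatives.

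Chemokine receptors guide leukocytes, and 12 of the 18 in the table were under the filter. The leukocyte markers PTPRC and CD3E reached at most 10.7 and 3.39 normalized counts in any library. In the same marker list, however, CD68, CD14, ITGAM and CSF1R passed the filter, and the list summed to 1773 or more in every library. Of the 6 tested, 1 was higher, 2 were lower and 3 did not pass, so 50% changed, against 60.6% of all tested genes. CCR10, the receptor of CCL27 and CCL28, had 499, 427 and 455 normalized counts with IGFBP-7, against 1048, 975 and 1018 with PBS, with no overlap and a log2 change of -1.14 ± 0.09 (adjusted p 3.09e-15, limma). In GENCODE 29, CNTNAP1 on the opposite strand covers 14.5% of its exon bases. CXCR5, the CXCL13 receptor of B cells, had 1336, 1306 and 1218 normalized counts with IGFBP-7, against 908, 903 and 872 with PBS, a log2 change of 0.52 ± 0.08 (adjusted p 1.28e-07, limma). That value is uncertain, since BCL9L on the opposite strand covers 88.6% of the exon bases of CXCR5 and the sources used here do not state whether the counting used strand. CXCR6 had 54.2, 42.3 and 41.3 normalized counts with IGFBP-7, against 58.7, 62.8 and 112 with PBS. Its log2 change of -0.70 ± 0.28 (adjusted p 0.0293, limma) did not pass without IGFBP-7 replicate 2 (-0.64), without IGFBP-7 replicate 3 (-0.63) or without PBS replicate 3 (-0.41), nor with no filter or with quantile normalization (-0.60), with adjusted p from 0.0109 to 0.298 over the alternatives. CXCR2, ACKR3 and ACKR4 had log2 changes of -1.05 ± 0.52, 0.30 ± 0.53 and -0.17 ± 0.18 and did not pass (adjusted p 0.075, 0.647 and 0.44, limma). CXCR2 passed without IGFBP-7 replicate 2 (-1.42, adjusted p 0.0345) and with scaling to the library total (-1.18, adjusted p 0.0486), in a range of 0.0345 to 0.258, and ACKR3 was -0.14 without IGFBP-7 replicate 1.

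Adhesion receptors have long extracellular parts that bind matrix or neighbouring cells, and 13 of the 25 were tested: 3 were higher, 4 were lower and 6 did not pass. Thus 53.8% changed, against 60.6% of all tested genes. ADGRG6, a receptor of collagen IV known for Schwann cell myelination, had 1512, 1367 and 1282 normalized counts with IGFBP-7, against 3656, 3839 and 3585 with PBS. Its values fell into groups far apart, with a log2 change of -1.41 ± 0.07 (adjusted p 7.60e-25, limma). ADGRA2, a co-receptor of Wnt7 in brain vessels, had 2399, 2171 and 2283 normalized counts with IGFBP-7, against 1094, 1037 and 1064 with PBS, with 1.10 ± 0.07 (adjusted p 3.36e-19, limma). BRF2 on the opposite strand covers 23.1% of its exon bases. ADGRG1, a receptor of collagen III, had 1115, 1114 and 988 normalized counts with IGFBP-7, against 666, 596 and 630.2 with PBS, with 0.76 ± 0.09, and ADGRF4, a receptor with no established ligand, had 326, 317 and 309 normalized counts with IGFBP-7, against 172, 122 and 236 with PBS, with 0.89 ± 0.16 (adjusted p 1.44e-10 and 4.92e-06, limma). ADGRE5, the CD97 antigen that binds CD55, was lower with 2371, 2395 and 2291 normalized counts with IGFBP-7, against 4561, 3804 and 4008 with PBS, a log2 change of -0.81 ± 0.06. ADGRA3, an orphan, was lower with 2524, 2716 and 2353 normalized counts with IGFBP-7, against 3733, 3870.2 and 3651 with PBS, a log2 change of -0.57 ± 0.06 (adjusted p 2.60e-16 and 1.28e-11, limma). In none of these 6 did the groups overlap. ADGRB3, a receptor known in neurons, had 4.09, 11.01 and 10.3 normalized counts with IGFBP-7, against 28.8, 22.6 and 13.9 with PBS, and passed the filter only through the PBS libraries. Its log2 change of -1.31 ± 0.57 (adjusted p 0.0427, limma) did not pass without IGFBP-7 replicate 1 (-0.91), without PBS replicate 1 (-1.08) or without PBS replicate 2 (-1.25), with no filter (adjusted p 0.0577), with quantile normalization (-1.27) or with the replicate number as a block (adjusted p 0.0501), over a range of 0.0280 to 0.168. With scaling to the library total the class counted 3 higher and 6 lower.

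Class C orphan receptors were lower in 2 of 3 tested cases, against 29.2% of all tested genes, and so few genes cannot be set apart from that share. GPRC5A, a retinoic acid induced receptor known as a tumour suppressor in mouse lung, had 1101, 1202 and 1242 normalized counts with IGFBP-7, against 4375, 4311 and 4402 with PBS. The IGFBP-7 values were all under 0.3 times any PBS value, with a log2 change of -1.89 ± 0.06 (adjusted p 9.28e-31, limma), the second largest fall among members. GPRC5B had 1829.8, 1783 and 1821 normalized counts with IGFBP-7, against 3642, 3143 and 3801 with PBS, with -0.96 ± 0.07 (adjusted p 3.04e-18, limma), and IQCK on the opposite strand covers 26.7% of its exon bases.

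Of the 37 tested genes of the GPR series, 10 were higher, 8 were lower and 19 did not pass, and with scaling to the library total 8 were higher and 10 lower. The share changed was 48.6%, below the 60.6% of all tested genes. GPR4, a proton-sensing receptor that couples to Gs, had 239, 146 and 227 normalized counts with IGFBP-7, against 347, 309 and 332 with PBS, with a log2 change of -0.72 ± 0.15 (adjusted p 5.18e-05, limma). GPR3, a Gs-coupled receptor that is active without a ligand, had 359, 341 and 318 normalized counts with IGFBP-7, against 216, 259 and 203 with PBS, with 0.59 ± 0.14 (adjusted p 0.000191, limma). In both genes the groups did not overlap.

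GPR143, an intracellular receptor of pigment cells mutated in ocular albinism, had 134, 89.8 and 67.2 normalized counts with IGFBP-7, against 53.5, 21.6 and 24.6 with PBS, a log2 change of 1.58 ± 0.31 (adjusted p 2.02e-05, limma). GPR55, a receptor of lysophosphatidylinositol, had 17.4, 28.8 and 33.1 normalized counts with IGFBP-7, against 59.7, 85.4 and 70.5 with PBS, with -1.44 ± 0.32 (adjusted p 0.000123, limma). GPR143 came close to overlap through PBS replicate 1, while GPR55 kept a wider gap. GPR78, an orphan distinct from the chaperone with the similar name, had 1580.4, 1503 and 1344 normalized counts with IGFBP-7, against 3282, 3429 and 3567 with PBS, with -1.22 ± 0.07 (adjusted p 4.80e-22, limma), and CPZ on the same strand shares 24.1% of its exon bases. GPR135, an orphan, had 638, 605 and 582 normalized counts with IGFBP-7, against 343, 346 and 320.4 with PBS, with 0.85 ± 0.11 (adjusted p 1.99e-09, limma). GPR37, a receptor known in dopaminergic neurons and oligodendrocytes, had 244, 224 and 207 normalized counts with IGFBP-7, against 422, 425 and 467 with PBS, with -0.96 ± 0.13, and the orphan GPR176 had 4029, 3866 and 3859 normalized counts with IGFBP-7, against 5869, 6117 and 6291 with PBS, with -0.64 ± 0.05 (adjusted p 5.57e-09 and 4.21e-15, limma). Each of these changed without overlap of the groups.

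The remaining called genes of the series moved less. GPR155, GPR157, GPR39, GPR180, GPR89A and GPR161 were higher, by 0.26 to 0.71 on the log2 scale, and GPR35, GPR162 and GPR108 were lower, by log2 changes of -0.57 to -0.21. GPR39, a zinc receptor that couples to Gq, had 2186, 2066 and 1913 normalized counts with IGFBP-7, against 1628, 1563 and 1648 with PBS, and LYPD1 on the opposite strand covers 34.8% of its exon bases. GPR89A and its near-identical copy GPR89B share sequence, so counts could be split between them. GPR89A was at 0.32 ± 0.13 (adjusted p 0.0302, limma), and did not pass without IGFBP-7 replicate 1 (0.30), without IGFBP-7 replicate 3 (0.31) or without PBS replicate 3 (0.17), nor with edgeR, DESeq2 or scaling to the library total, with adjusted p from 0.00606 to 0.292. GPR35 was at -0.57 ± 0.25 (adjusted p 0.0428, limma) and did not pass when either IGFBP-7 replicate 2 (-0.47) or 3 (-0.54), or either PBS replicate 1 (-0.35) or 3 (-0.60), was left out, nor with no filter or quantile normalization, with adjusted p from 0.0141 to 0.287. GPR161 did not pass with scaling to the library total (0.12, adjusted p 0.174, in a range of 6.78e-05 to 0.174).

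Among the RGS genes, RGS4 fell while RGS3 and RGS19 rose. Of the 10 tested, 2 were higher, 1 was lower and 7 did not pass, 30.0% changed, against 60.6% of all tested genes. RGS4, which acts on Gi and Gq and is known in heart and brain, had 417, 284 and 325 normalized counts with IGFBP-7, against 1252, 1194 and 1189.9 with PBS. Means were 342 ± 68.2 with IGFBP-7, against 1212 ± 34.8 with PBS (SD, n = 3 each), and the log2 change was -1.84 ± 0.10 (adjusted p 2.96e-21, limma). RGS3, which acts on the same alpha subunits, had 1686, 1449 and 1918 normalized counts with IGFBP-7, against 1018, 1125 and 1094 with PBS, with 0.63 ± 0.08 (adjusted p 2.21e-09, limma). RGS19, known for binding Gi alpha subunits, had 1354, 1408 and 1379 normalized counts with IGFBP-7, against 1069.9, 1101 and 1049.9 with PBS, with 0.36 ± 0.08 (adjusted p 4.45e-05, limma). In all 3 the groups did not overlap.

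The other 7 tested RGS genes lay within 0.35 of 0 on the log2 scale. RGS5, a marker of pericytes, had 169, 159 and 128 normalized counts with IGFBP-7, against 145, 228 and 211 with PBS. Its PBS replicate 1 lay among the IGFBP-7 values, and the log2 change was -0.34 ± 0.18 (adjusted p 0.0906, limma). Without PBS replicate 1 it was -0.54 with an adjusted p of 0.0117, in a range of 0.0117 to 0.371 over the alternatives. RGS9, known in retina and striatum, had 394, 378 and 436 normalized counts with IGFBP-7, against 469.6, 493 and 465 with PBS. Those groups did not overlap, and the log2 change of -0.24 ± 0.11 had an adjusted p of 0.0529 (limma). It passed without IGFBP-7 replicate 3 (-0.30, adjusted p 0.0307), with edgeR, with DESeq2 and with scaling to the library total (-0.38), in a range of 0.00274 to 0.170. The log2 changes were -0.15 ± 0.09 for RGS10, -0.01 ± 0.13 for RGS20, 0.13 ± 0.19 for the Gq-selective RGS2, 0.16 ± 0.30 for RGS14 and 0.22 ± 0.21 for RGS7. None of these 5 passed (adjusted p 0.149, 0.935, 0.591, 0.665 and 0.366, limma). With scaling to the library total RGS4, RGS5, RGS9 and RGS10 (-0.29, adjusted p 0.00512, in a range of 0.00512 to 0.342) were lower, 4 in all against 2 higher. The small values of RGS2, RGS14 and RGS20 changed sign under at least 1 alternative.

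**Figure D5:**
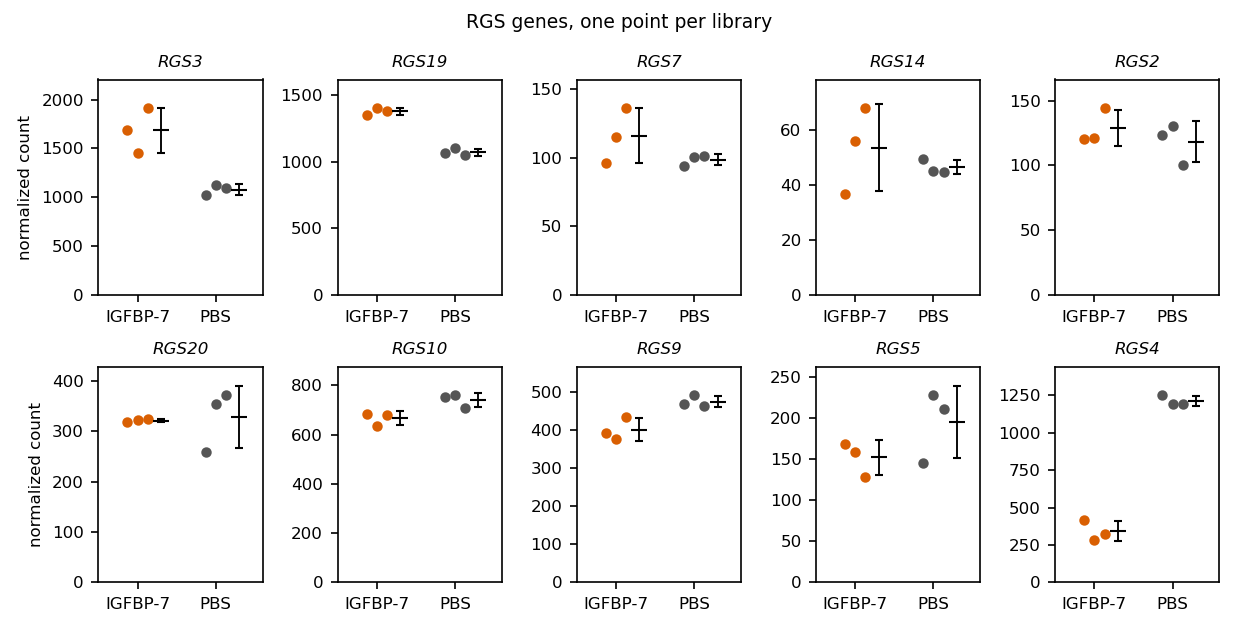
Normalized counts of the 10 tested RGS genes in each library, 1 point per library with the mean and SD (n = 3), IGFBP-7 left and PBS right, ordered from the highest to the lowest log2 change and each on its own scale from 0. RGS3 and RGS19 are higher with IGFBP-7, RGS4 is lower at 284 to 417 with IGFBP-7 against 1190 to 1252 with PBS, and the other 7 did not pass the test.

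Downstream of the receptors, genes of the G protein and second messenger machinery were read from lists chosen with earlier results of these data known. Of 6 tested G protein alpha subunits 4 were higher and 2 lower, or 2 and 2 with scaling to the library total. The falls were GNAI1, a Gi subunit, with 1651, 1861 and 1598 normalized counts with IGFBP-7, against 2701, 2926 and 2959.7 with PBS and a log2 change of -0.75 ± 0.07 (adjusted p 4.37e-14, limma), and GNAZ at -0.45 ± 0.16. The largest rises were GNA13, the subunit that activates RhoA exchange factors, at 0.35 ± 0.05 (adjusted p 2.41e-07, limma), and the photoreceptor subunit GNAT2 at 0.59 ± 0.25. GNAT2 (adjusted p 0.0428, limma) did not pass in the 5 fits that left out 1 library other than PBS replicate 1, where log2 changes ran from 0.53 to 0.63, nor with edgeR, no filter or scaling to the library total, and its adjusted p ran from 0.0182 to 0.133. GNAZ (adjusted p 0.0111, limma) did not pass without IGFBP-7 replicate 3 (-0.38) or PBS replicate 2 (-0.39), with adjusted p from 0.00121 to 0.0615. Of 8 beta and gamma subunits 2 were higher (GNGT1 at 0.62 ± 0.12, GNB4 at 0.37 ± 0.05) and 3 lower, among them GNG7 at -1.22 ± 0.49 and GNGT2 at -0.79 ± 0.32. GNG7 did not pass without IGFBP-7 replicate 3 (-0.85), PBS replicate 1 (-1.10) or PBS replicate 3 (-1.25), with adjusted p from 0.0171 to 0.137. GNGT2 did not pass without IGFBP-7 replicate 1 (-0.67) or 3 (-0.76) or PBS replicate 1 (-0.72) or 3 (-0.73), with adjusted p from 0.0122 to 0.0889.

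Receptor kinases and arrestins were lower in 4 of 8 tested cases and higher in 1. GRK5, a kinase that phosphorylates active receptors, had 652, 534 and 565 normalized counts with IGFBP-7, against 1216, 1031 and 1192 with PBS, with no overlap and a log2 change of -0.97 ± 0.09 (adjusted p 3.02e-13, limma). Both beta-arrestins were lower, ARRB1 at -0.52 ± 0.06 and ARRB2 at -0.66 ± 0.06 (adjusted p 5.79e-10 and 7.07e-13, limma). The arrestin-domain genes were apart, ARRDC1 at -0.74 ± 0.07 and ARRDC3 at 0.30 ± 0.07 (adjusted p 2.93e-12 and 0.000136, limma).

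In the cyclic AMP arm 4 of 16 tested genes were higher and 7 lower, or 2 and 8 with scaling to the library total. Phosphodiesterases, which break down cyclic AMP, were among the genes that changed in both directions. PDE4C had 73.6, 104 and 94.0 normalized counts with IGFBP-7, against 14.4, 3.93 and 7.48 with PBS, with a log2 change of 3.39 ± 0.41 (adjusted p 5.47e-10, limma), or 2.46 with a pseudocount of 10, and it passed the filter only through the IGFBP-7 libraries. PDE7B had 122, 137 and 133 normalized counts with IGFBP-7, against 348, 353 and 324 with PBS, with -1.38 ± 0.15 (adjusted p 2.01e-11, limma), and PDE4B was at -0.87 ± 0.19 (adjusted p 0.000121, limma). The other of the largest rises was PRKAR2A, a regulatory subunit of protein kinase A, at 0.37 ± 0.05 (adjusted p 3.00e-08, limma).

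In the phospholipase C arm 2 of 12 tested genes were higher and 6 lower, or 2 and 8 with scaling to the library total. PLCB1, a phospholipase activated by Gq, was at -0.68 ± 0.18 and the protein kinase C gene PRKCE at -0.65 ± 0.08 (adjusted p 0.0012 and 1.26e-09, limma). DGKI, a kinase that removes diacylglycerol, had 565, 594 and 582 normalized counts with IGFBP-7, against 117, 78.6 and 108 with PBS, with 2.53 ± 0.15 (adjusted p 9.23e-21, limma), and PLCB3 was at 0.26 ± 0.05 (adjusted p 1.05e-05, limma). Of 6 guanine nucleotide exchange factors that act downstream of G proteins 4 were lower and 2 did not pass, and with scaling to the library total 5 were lower. PREX1, a Rac exchange factor activated by beta and gamma subunits, had 1743, 1593 and 1644 normalized counts with IGFBP-7, against 5771, 5303 and 5783 with PBS, with -1.76 ± 0.06 (adjusted p 1.01e-30, limma). ARHGEF12, activated by G12/13, was at -0.36 ± 0.05 (adjusted p 5.17e-09, limma).

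Of 13 tested accessory proteins 2 were higher and 6 lower. RAMP1, which turns the calcitonin receptor-like receptor into the receptor of CGRP, had 98.1, 90.6 and 90.9 normalized counts with IGFBP-7, against 11.3, 3.93 and 6.41 with PBS, with 3.62 ± 0.41 (adjusted p 7.58e-11, limma), or 2.61 with a pseudocount of 10. It passed the filter only through the IGFBP-7 libraries. HOMER1, a scaffold of glutamate receptors, was at 0.90 ± 0.10, while REEP1 was at -0.77 ± 0.11 and GPSM3, a G protein modulator, at -0.71 ± 0.08 (adjusted p 1.32e-11, 3.91e-08 and 6.73e-11, limma). Of the 19 tested genes for ligands and their enzymes, which include those given beside their receptors, 7 were higher and 7 lower, with a median log2 change of 0.13 that was -0.0098 with scaling to the library total.

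Receptors whose symbols lie outside the named families were 9 higher and 15 lower of 47 tested, or 7 and 18 with scaling to the library total. SSTR1, a Gi-coupled somatostatin receptor, had 147, 158 and 125 normalized counts with IGFBP-7, against 1169.8, 1213 and 1099 with PBS, with a log2 change of -3.01 ± 0.12 (adjusted p 2.10e-28, limma). Its relative SSTR2 had 448, 449 and 416 normalized counts with IGFBP-7, against 241, 158 and 244 with PBS, with 1.05 ± 0.14 (adjusted p 5.70e-09, limma). The relatives moved in opposite directions without overlap, as HTR1D and HTR1B did. CHRM2, the Gi-coupled muscarinic receptor of the heart, had 0, 3.39 and 0 normalized counts with IGFBP-7, against 61.8, 49.1 and 65.2 with PBS. It was at 0 in 2 of 3 IGFBP-7 libraries and passed the filter only through the PBS libraries, and its log2 change of -5.18 ± 0.69 (adjusted p 5.96e-09, limma) depended on the setting, with -2.63 at a pseudocount of 10 and -5.89 without IGFBP-7 replicate 2. The Gq-coupled CHRM3 had 26.6, 8.47 and 16.5 normalized counts with IGFBP-7, against 47.4, 118 and 143 with PBS, with -2.50 ± 0.38 (adjusted p 1.13e-07, limma). RXFP3 and the opioid receptor OPRD1 were higher, at 2.03 ± 0.37 and 1.62 ± 0.42 (adjusted p 4.59e-06 and 0.000697, limma), and so was the histamine receptor HRH1 with 3089, 2792 and 2914 normalized counts with IGFBP-7, against 1631, 1616 and 1674 with PBS, at 0.84 ± 0.06 (adjusted p 2.61e-16, limma).

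The 72 members under the filter, 67 receptors and the RGS genes RGS6, RGS11, RGS16, RGS18 and RGS22, reached at most 20.7 normalized counts in any library. Of these, 16 were below 3 fragments in every library, 17 were at 0 in all IGFBP-7 libraries and 11 were at 0 in all PBS libraries. In 12 of the 72 the groups did not overlap, but at such low counts a gap can rest on a few fragments. The share over all genes under the filter was not computed, so this count cannot be judged. With no filter, 8 passed the test (limma): ADGRD2, ADGRE2, CCR1, CCR4, LPAR3, P2RY14, P2RY2 and RGS18, each on at most 36 fragments summed over a group. Exons that overlap another gene of the table concern 26 of the 178 members and 17 of the tested ones. The 89 tested members without such an overlap split into 25 higher, 30 lower and 34 not passing.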

How the data were processed

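RNA sequencing values were compared in 3 IGFBP-7 and 3 PBS libraries of LX-2 cells, grouped by the treatment label. Per the file headers, the deposited signal is a normalized count per gene, not logged. Per the submitters' processing notes, the tools were STAR, Subread, featureCounts and DESeq2, with no role or version. Build, annotation and strand setting of the counting: not given in the sources used here. In each library 100% of values were whole multiples of 1 step within 0.01, which gave back the reads. Nearly all counts were even, so 2 reads were taken as 1 fragment. Reads lack molecular identifiers, so the 3-fragment floor covers counting error only. Replicates differed by more than sampling noise (chi-square per degree of freedom 5.10 to 6.93).

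As the values are normalized, limma-trend (limma 3.58.1, R 4.3.3) compared IGFBP-7 minus PBS, two-sided and with no covariate, after adding a pseudocount of 1 and taking log2. All 11872 genes averaging 10 or more were fitted together, with Benjamini-Hochberg adjustment over all of them and a threshold of 0.05. The pseudocount understates changes of low genes, and levels are not compared between genes. Alternatives were edgeR 4.0.16 and DESeq2 1.42.0 on recovered reads, 2 other pseudocounts, 2 other filters, 2 scalings, a replicate block and leaving out each library. The limma code was tested on simulated data with far fewer changed genes than were called here, which checks the code and not the calls.

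Members and lists were chosen with earlier results of these data known. By rule, the text names the 15 largest rises and 15 largest falls among called members without overlap, the tested members of 9 receptor families, the tested RGS genes and the 2 largest called changes each way per pathway list. A few items that this rule selects are not reported here. Other members and genes named, and the coupling groups, were chosen after their values were seen. Exon overlaps come from GENCODE 29 and upstream sequences from RefSeq GRCh38.p14, which held a window for 130 members matched by symbol. Motifs were sought in the 250 bases upstream of the start.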

Additional observations from a re-analysis of the deposited data

How the results depend on the processing

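None of the 64 called members changed direction under the 15 alternatives, 18 of them not being tested with a filter at a mean of 100. Member counts were 29 higher and 37 lower with edgeR, and 28 and 36 with DESeq2. Leaving out 1 library gave 28 to 31 higher and 31 to 36 lower. The same shared replicate numbers used as a block gave 30 higher and 33 lower, with ADGRB3 lost. Same-numbered libraries had correlated deviations of -0.049 to 0.012, against -0.028 to 0.072 for libraries of different number. No shared deviation by number was seen, but 3 libraries per group cannot tell whether they were paired. Over all tested genes the counts were 3541 higher and 3562 lower with edgeR, 3572 and 3536 with DESeq2, and 3715 and 3462 with the block. Scaling to the library total gave 2435 higher and 4176 lower, where the fit reported has 3721 and 3471.

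RGS genes lower, 1 in the fit reported, numbered 2 with edgeR or DESeq2, 4 with scaling to the library total and 1 to 2 when a library was left out. Members at least 2-fold higher, 9 in the fit reported, numbered 4 with a filter at a mean of 100 and 14 with no filter, and those at least 2-fold lower, 17, numbered 10 with the filter at 100. These filters change which genes are tested. Sign changes over all alternatives were followed for part of the members only. With library-total scaling, others turned sign too, such as ADGRL1 (0.045 to -0.096) and ADGRF3 (0.11 to -0.031). Among followed members that did not pass, log2 changes turned sign for RGS2 (-0.014 with library-total scaling) and RGS20 (0.024 with quantile normalization). Over fits without 1 library they ran from -0.14 to 0.78 for ACKR3, from -0.033 to 0.40 for RGS14 and from -0.18 to 0.085 for RGS20. The cause was not tested. Members under the filter are limited by depth.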
